A study of Mus musculus with 11 samples.

Results

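RNA-Seq counts of genes for interleukins, chemokines, tumor necrosis factor (TNF) family proteins, colony stimulating factors, Toll-like receptors, lectins of immune cells and CD antigens, with their receptors, were described in ErbB2-driven mammary tumor cell lines. Members were all protein-coding genes of the deposited table whose symbol begins with the name of 1 of these families (for example Il followed by a digit, Cxcl, Tnf, Csf1 to Csf3 or Cd followed by a digit). This gave 70 of the 4461 genes in the table, of which 4056 were protein-coding. The cell lines were derived from mammary tumors of female FVB/N mice, excised at 8 weeks post-palpation. All mice carried the NIC transgene, in which the MMTV promoter drives activated ErbB2 together with Cre in mammary epithelium. In NIC/Cpt1a L/L mice, Cre also deletes the floxed alleles of *Cpt1a*, the enzyme that admits long-chain fatty acids into mitochondria for oxidation. NIC/Cpt1a+/+ mice kept both wild-type alleles. No drug or other treatment was applied to the cells. Each line comes from 1 tumor, and 4 NIC/Cpt1a L/L lines (KO_1922, KO_1925, KO_2768 and KO_4258) were compared with 2 NIC/Cpt1a+/+ lines (WT_5257 and WT_8905). Lines had duplicate libraries, other than KO_2768 with 1 library used here, and duplicates were summed.

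Cytokines are secreted or membrane-bound proteins through which cells signal to each other, and chemokines are the cytokines that attract migrating cells. TNF receptors, Toll-like receptors and some interleukin receptors pass their signals largely through NF-κB. Other interleukin receptors, and those of colony stimulating factors and LIF, act through kinases. Mammary tumor cells are known to secrete several of these proteins, which act on macrophages, neutrophils and lymphocytes of the tumor as well as on the tumor cells themselves. CD antigens are cell surface proteins named in a common nomenclature, and they need not share a function.

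The table holds only genes that the study selected for a difference between these genotypes, on the same libraries. Counts over members are therefore set beside the same counts over listed genes, and adjusted p-values over listed genes are too small. *Cpt1a* was not analysed here, so the deletion was not checked. Library totals lay between 18247312 and 25386785 reads in NIC/Cpt1a L/L and between 15199378 and 17372643 reads in NIC/Cpt1a+/+, so that every NIC/Cpt1a L/L library was the deeper. Of the markers of other cells, 1 of 19 for blood cells (*Csf1r*, itself a member), 0 of 5 for endothelium and 5 of 10 for fibroblasts were listed. None of 10 epithelial markers was listed, so the labelled tissue could not be checked against them. The summed level of the 5 fibroblast markers was 9.14, 3.86, 1483 and 0.046 CPM (counts scaled to library size) in KO_1922, KO_1925, KO_2768 and KO_4258, and 0 and 0.18 CPM in WT_5257 and WT_8905. Decorin (*Dcn*) accounted for 1452 CPM in KO_2768, where *Pdgfrb*, *Thy1*, *Col1a2* and *Acta2* were at 14.2, 6.54, 6.05 and 4.11 CPM. In KO_4258 *Pdgfrb*, *Col1a2*, *Dcn* and *Thy1* were at 0. In these bulk samples, more cells of a type and more RNA per cell cannot be told apart.

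Members were mostly higher in NIC/Cpt1a L/L lines, but by different amounts in different lines. Of the 67 members with enough reads to be tested, 49 had a positive and 18 a negative log2 fold change (NIC/Cpt1a L/L relative to NIC/Cpt1a+/+). Positive values made up 73.1% of members and 58.6% of the 4273 listed genes tested. The median log2 fold change was 2.34 over members and 0.60 over listed genes. In absolute size the medians were 2.96 and 1.20. The summed level of all members was 3664, 3323, 4947 and 3414 CPM in KO_1922, KO_1925, KO_2768 and KO_4258, against 1375 and 2264 CPM in WT_5257 and WT_8905. Every NIC/Cpt1a L/L line was thus above both NIC/Cpt1a+/+ lines in this sum.

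With the cell line as the replicate, 0 members passed an adjusted p of 0.05 in either direction by edgeR's quasi-likelihood test. The background was 1.33% of listed genes higher and 1.92% lower, or 57 and 82 genes, and this split was 99 and 291 with TMM factors. At an unadjusted p under 0.05 there were 23 members higher and 9 lower, 47.8% of members, where listed genes had 26.3% higher and 21.5% lower, also 47.8% together. DESeq2 on the same line sums called 28 members higher and 9 lower of the 62 with an adjusted p, where 31.5% and 19.2% of listed genes were called. When each library was counted as a sample, which treats duplicates of a line as independent, edgeR called 37 members higher and 15 lower of 57 tested, where 55.5% and 42.5% of listed genes were called. In 33 of 70 members all NIC/Cpt1a L/L lines lay above both NIC/Cpt1a+/+ lines, and in 16 members all lay below both. Among tested members these were 47.8% and 23.9%, beside 40.7% and 34.7% of listed genes. The lines of both genotypes overlapped in the other 21 members.

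**Figure D1:**
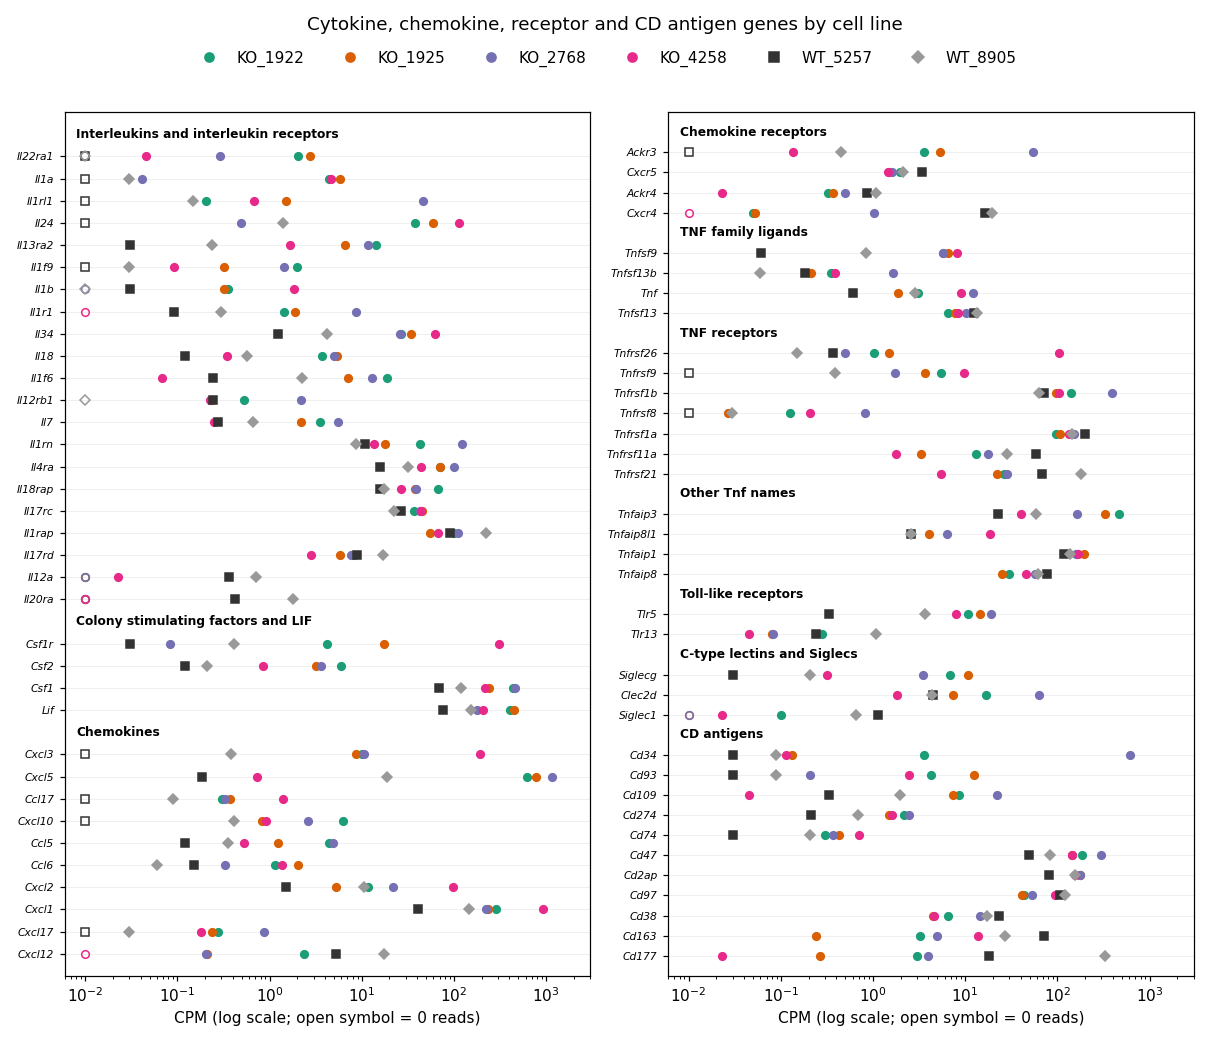
Level of each of the 70 members in each cell line, in CPM on a log axis, grouped by family; circles are NIC/Cpt1a L/L lines, the square and the diamond NIC/Cpt1a+/+ lines, and open symbols at the left edge are lines with 0 reads. All 4 circles lie above both NIC/Cpt1a+/+ symbols in 33 members and below both in 16.

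**Figure D2:**
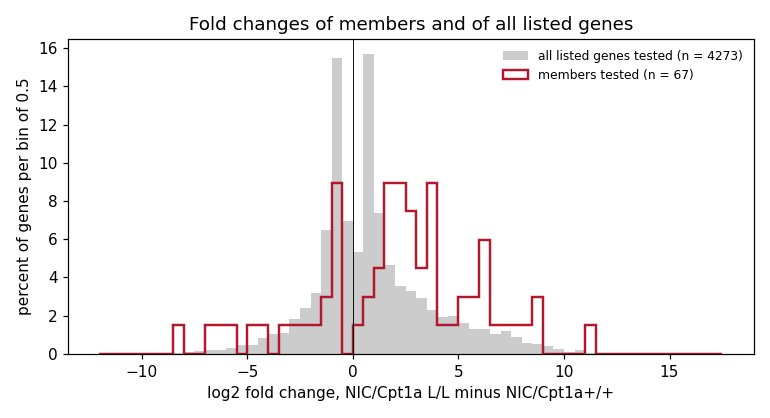
Distribution of log2 fold changes (x axis, NIC/Cpt1a L/L minus NIC/Cpt1a+/+) as the percent of genes per bin (y axis), for the 67 members tested (red outline) and the 4273 listed genes tested (grey bars). The median is 2.34 for members and 0.60 for listed genes, and grey bars are low around 0 in a table selected for differences.

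The promoters of members were searched for 2 short motifs that inflammatory genes often carry, the κB motif bound by NF-κB and the AP-1 motif TGANTCA, on both strands. RefSeq (GRCm38.p6) gave a window of 250 bases before to 50 bases after the start for 52 of 70 members. A κB match was present in 11 of these, or 21.2%, beside 6.89% of the 3193 listed genes tested with such a window and 5.14% of all 27025 genes with one. The 11 were *Cxcl1*, *Cxcl2*, *Cxcl3*, *Cxcl10*, *Csf1*, *Il1r1*, *Il4ra*, *Tnfaip3*, *Tnfaip8l1*, *Tnfrsf8* and *Tnfrsf9*, and the mean level of all 11 was higher in NIC/Cpt1a L/L lines, as was that of 26 of the 41 members without a match. Group means hide overlap between lines, seen in some of the 11, among them *Cxcl2*, *Il1r1*, *Tnfaip3* and *Tnfaip8l1*. Whether NF-κB had a part was not tested. Over listed genes, 60.9% with a match and 56.6% without one had a positive log2 fold change. An AP-1 match was present in 12 members, or 23.1%, beside 8.08% of listed and 8.97% of all genes. A match of letters is not evidence that a factor binds. The windows below hold the κB match in capitals and are shown for *Cxcl1*, *Cxcl2*, *Cxcl3*, *Csf1* and *Tnfaip3* because these genes had a match before the start and a mean level above 30 CPM in NIC/Cpt1a L/L lines. They lie at chr5:90891134-90891223 (+ strand), chr5:90903762-90903851 (+), chr5:90785988-90786077 (+), chr3:107760574-107760663 (-) and chr10:19015486-19015575 (-), in that order.
Cxcl1: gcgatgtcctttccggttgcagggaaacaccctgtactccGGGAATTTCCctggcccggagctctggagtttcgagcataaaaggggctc
Cxcl2: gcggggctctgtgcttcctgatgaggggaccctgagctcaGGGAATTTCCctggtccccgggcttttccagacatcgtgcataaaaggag
Cxcl3: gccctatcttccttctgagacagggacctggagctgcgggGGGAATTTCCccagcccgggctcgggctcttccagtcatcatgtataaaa
Csf1: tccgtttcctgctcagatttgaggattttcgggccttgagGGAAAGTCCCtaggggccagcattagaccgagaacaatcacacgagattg
Tnfaip3: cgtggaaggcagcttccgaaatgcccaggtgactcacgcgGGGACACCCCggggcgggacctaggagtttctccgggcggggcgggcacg
The same 10 letters, GGGAATTTCC, begin 71, 97 and 73 bases before the start in *Cxcl1*, *Cxcl2* and *Cxcl3*, whose genes are neighbours.

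Chemokines had 8 of 9 tested members with a positive log2 fold change, and in 7 of 10 the lines did not overlap and were higher in NIC/Cpt1a L/L. The shares over listed genes tested were 58.6% and 40.7%. The genes of 4 neutrophil-attracting CXC chemokines stand within 147 kb on chromosome 5 (90759299 to 90905909, mm10), in the order *Cxcl5*, *Cxcl3*, *Cxcl1*, *Cxcl2*. *Cxcl1* had 288, 232, 221 and 915 CPM in KO_1922, KO_1925, KO_2768 and KO_4258 and 40.8 and 145 CPM in WT_5257 and WT_8905. All NIC/Cpt1a L/L lines were above both controls, with KO_4258 the highest, and the log2 fold change was 2.15 (SE 0.89, edgeR adjusted p = 0.105). *Cxcl3* was at 10.1, 8.60 and 10.6 CPM in the first 3 lines and at 192 CPM in KO_4258, against 0 and 0.39 CPM in the controls. Its log2 fold change was 8.13 (SE 2.64, edgeR adjusted p = 0.0829), and 5.63 without KO_4258. *Cxcl2* reached 11.7, 5.27, 21.9 and 98.1 CPM, and the controls 1.52 and 10.7 CPM. Here KO_1925 lay between the control lines, so the genotypes overlapped (log2 fold change 2.49, SE 1.49, and 1.09 without KO_4258).

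*Cxcl5* differed from its neighbours in which lines were high. Its level was 614, 772 and 1156 CPM in KO_1922, KO_1925 and KO_2768 but 0.73 CPM in KO_4258, the line with the highest *Cxcl1*, *Cxcl2* and *Cxcl3*. In WT_5257 and WT_8905 it was 0.18 and 18.7 CPM. The log2 fold change of 6.07 (SE 3.04, edgeR adjusted p = 0.124) therefore averages 3 lines far above and 1 line between the controls. Per length, *Cxcl1* and *Cxcl5* were the most abundant members, with means of 427 and 379 FPKM (fragments scaled to gene length and library size) in NIC/Cpt1a L/L lines and 99.2 and 5.82 FPKM in controls.

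**Figure D3:**
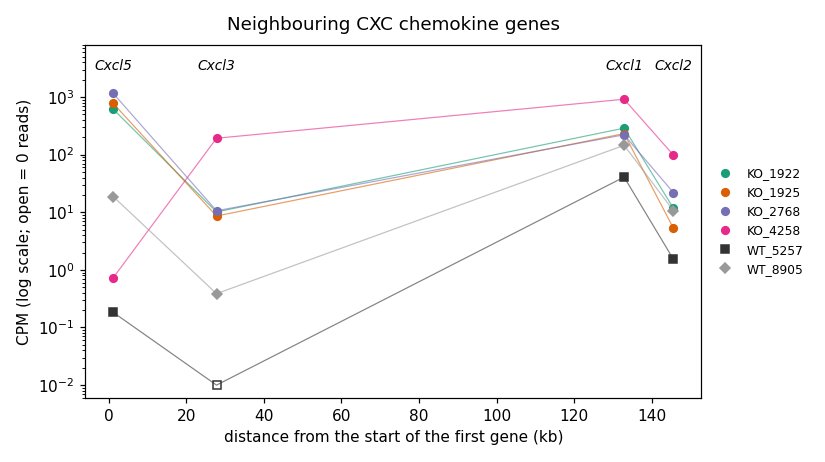
Level of the 4 neighbouring CXC chemokine genes (y axis, CPM on a log scale) against distance along chromosome 5 from the start of *Cxcl5* (x axis, kb), with 1 line per cell line; circles are NIC/Cpt1a L/L and an open symbol is 0 reads. KO_4258 is highest for *Cxcl3*, *Cxcl1* and *Cxcl2* and at 0.73 CPM for *Cxcl5*, where the other 3 NIC/Cpt1a L/L lines lie between 614 and 1156 CPM.

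*Cxcl10*, *Ccl5* and *Ccl6*, which attract T cells or monocytes, had mean levels of 2.42, 4.09 and 0.83 FPKM in NIC/Cpt1a L/L lines. *Cxcl10*, an interferon-inducible ligand of CXCR3, had 6.24, 0.82, 2.63 and 0.91 CPM in the 4 NIC/Cpt1a L/L lines and 0 and 0.42 CPM in controls (log2 fold change 3.65, SE 1.82, edgeR adjusted p = 0.124). *Ccl5* (RANTES) was at 4.39, 1.24, 4.94 and 0.52 CPM against 0.12 and 0.36 CPM, a log2 fold change of 3.51 (SE 1.27). *Ccl6*, its neighbour on chromosome 11, was between 0.33 and 2.01 CPM against 0.15 and 0.059 CPM. All 3 were higher in every NIC/Cpt1a L/L line than in either control. The following 2 genes rest on few control reads. *Ccl17*, a ligand of CCR4, had 96 reads in NIC/Cpt1a L/L and 3 in NIC/Cpt1a+/+, 14.6-fold higher (95% exact counting interval 4.85 to 72.1). *Cxcl17* had 49 reads against 1, 22.4-fold higher (3.83 to 901), and was not tested. Such intervals cover counting error only and say nothing of the spread between lines.

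*Cxcl12*, also called SDF-1, was the chemokine with a negative fold change, and its receptor *Cxcr4* was lower as well. *Cxcl12* was at 2.35, 0.21, 0.21 and 0 CPM in NIC/Cpt1a L/L lines and 5.28 and 17.4 CPM in controls, a log2 fold change of -4.02 (SE 1.78, edgeR adjusted p = 0.111). *Cxcr4* was at 0.051, 0.053, 1.03 and 0 CPM, whereas WT_5257 and WT_8905 had 16.6 and 19.3 CPM (log2 fold change -6.03, SE 1.79, edgeR adjusted p = 0.0770). Neither gene overlapped between genotypes. Without KO_2768, the NIC/Cpt1a L/L line with the most *Cxcr4*, the gene passed and its log2 fold change was -8.92. Leaving out the line nearest to the controls favours a pass. Without KO_1922, KO_1925 or KO_4258 *Cxcr4* did not pass (edgeR adjusted p = 0.149, 0.147 and 0.0586).

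*Ackr3*, the atypical receptor that takes up CXCL12, ran opposite to *Cxcr4* in 3 of 4 lines. Its level was 3.56, 5.29 and 54.2 CPM in KO_1922, KO_1925 and KO_2768, 0.14 CPM in KO_4258 and 0 and 0.45 CPM in controls (log2 fold change 6.12, SE 2.95, edgeR adjusted p = 0.120). Without KO_2768 the log2 fold change was 3.73. This line had a fibroblast marker sum of 1483 CPM, mostly *Dcn*, whose part was not tested. Without WT_8905 the only control left, WT_5257, had no *Ackr3* read, so no fold is given. The other chemokine receptors were *Ackr4*, which takes up CCL19 and CCL21, and *Cxcr5*, the receptor of CXCL13. Both were lower in all NIC/Cpt1a L/L lines, between 0.023 and 0.49 CPM against 0.85 and 1.07 CPM for *Ackr4*, and between 1.46 and 1.97 CPM against 3.45 and 2.14 CPM for *Cxcr5*. Thus 3 of 4 chemokine receptors had a negative log2 fold change, unlike the chemokines themselves, where 58.6% of listed genes tested had a positive one. This contrast between the families was not tested.

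All 4 genes of the colony stimulating factor and LIF group had a positive log2 fold change, as did 58.6% of listed genes tested. *Csf1* encodes the growth factor of macrophages (M-CSF) and *Il34* the other known ligand of its receptor. *Csf1* was at 437, 241, 455 and 216 CPM in NIC/Cpt1a L/L lines, a mean of 337 ± 126 CPM (SD, n = 4), and at 68.6 and 119 CPM in controls. Its log2 fold change was 1.85 (SE 0.46, edgeR adjusted p = 0.0659). *Il34* was at 26.6, 34.4, 26.2 and 63.0 CPM (37.5 ± 17.4 CPM, SD, n = 4) against 1.25 and 4.16 CPM. With a log2 fold change of 3.79 (SE 0.74) and an edgeR adjusted p of 0.0544 it was the member nearest to the threshold. For both ligands each of the 4 NIC/Cpt1a L/L lines exceeded either control. Both passed when KO_4258 was left out, with log2 fold changes of 2.01 for *Csf1* and 3.42 for *Il34*. For *Csf1*, KO_4258 was the NIC/Cpt1a L/L line nearest to the controls, and leaving out such a line favours a pass. Without KO_1922, KO_1925 or KO_2768 *Csf1* did not pass (edgeR adjusted p = 0.138, 0.134 and 0.0723). The same held for *Il34* (edgeR adjusted p = 0.134, 0.134 and 0.0544). Per length, *Csf1* was the more abundant ligand in each line, between 50.6 and 106 FPKM in NIC/Cpt1a L/L against 13.9 to 34.4 FPKM for *Il34*.

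The shared receptor gene *Csf1r* varied widely between lines of 1 genotype. It was at 4.19, 17.4, 0.082 and 310 CPM in KO_1922, KO_1925, KO_2768 and KO_4258, and at 0.030 and 0.42 CPM in controls. KO_2768 lay between the controls while KO_4258 stood far above all others, and the log2 fold change of 8.51 had an SE of 3.73 (edgeR adjusted p = 0.111) and was 4.99 without KO_4258. *Csf1r* is also a marker of macrophages. The other 18 blood cell markers were not among the listed genes, so their levels could not be read. Of its exon bases, 15.1% overlap *Hmgxb3* on the opposite strand.

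*Csf2* (GM-CSF), a growth factor of granulocytes and macrophages, was at 5.96, 3.18, 3.58 and 0.84 CPM against 0.12 and 0.21 CPM, a log2 fold change of 4.33 (SE 1.05, edgeR adjusted p = 0.0652). *Lif*, a cytokine of the interleukin 6 family, was at 406, 444, 180 and 208 CPM against 76.1 and 153 CPM (log2 fold change 1.43, SE 0.53, edgeR adjusted p = 0.0950). In both, every NIC/Cpt1a L/L line was above both controls. *Csf2* was among the members that passed without KO_4258, with a log2 fold change of 4.65. KO_4258 was the NIC/Cpt1a L/L line nearest to the controls, so leaving it out favours a pass. Without KO_1922, KO_1925 or KO_2768 *Csf2* did not pass (edgeR adjusted p = 0.138, 0.134 and 0.0718).

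**Figure D4:**
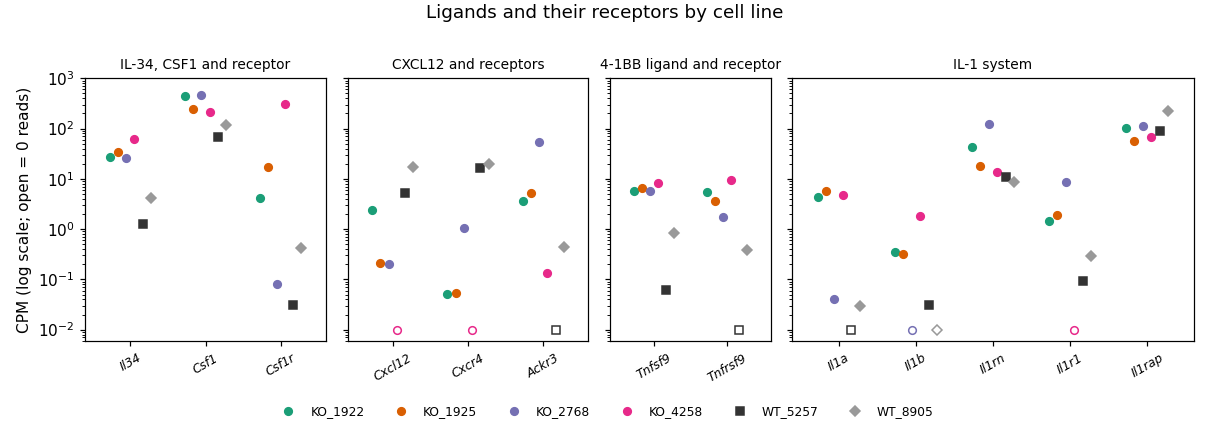
Ligands and receptors by cell line (y axis, CPM on a log scale; circles NIC/Cpt1a L/L, square and diamond NIC/Cpt1a+/+, open symbols 0 reads). *Il34*, *Csf1*, *Tnfsf9* and *Tnfrsf9* exceed both control lines in each of the 4 NIC/Cpt1a L/L lines, *Cxcl12* and *Cxcr4* are below both, and *Csf1r* runs from 0.082 to 310 CPM among NIC/Cpt1a L/L lines.

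Interleukins and their receptors were the largest family, with 21 members, 17 with a positive and 4 with a negative log2 fold change. In 10 the lines did not overlap and were higher in NIC/Cpt1a L/L, and in 3 they were lower. Among listed genes tested, 58.6% were positive, 40.7% did not overlap and were higher, and 34.7% did not overlap and were lower. The interleukin 1 system was well represented, with agonists, an antagonist and both receptor chains listed. *Il1a*, an alarmin that epithelial cells release, was at 4.37, 5.74, 0.041 and 4.68 CPM against 0 and 0.030 CPM in controls. With 596 reads against 1 it was 272-fold higher (95% counting interval 48.6 to 10765), and 3 of 4 lines carried this difference. *Il1b* had 106 reads against 1, 48.4-fold higher (8.50 to 1929), with no read in KO_2768. *Il1a* passed when KO_2768 was left out, with 0.041 CPM the lowest of the 4 lines and so the nearest to the controls. It did not pass without KO_1922, KO_1925 or KO_4258 (edgeR adjusted p = 0.149, 0.146 and 0.0770). *Il1rn*, which encodes the antagonist of the interleukin 1 receptor, was instead highest in KO_2768, at 122 CPM, beside 43.2, 17.8 and 13.8 CPM in KO_1922, KO_1925 and KO_4258 and 10.7 and 8.68 CPM in controls (log2 fold change 2.34, SE 1.03, edgeR adjusted p = 0.111). KO_2768 thus combined the lowest agonist and the highest antagonist levels of the 4 lines.

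The binding receptor chain *Il1r1* was at 1.44, 1.91, 8.72 and 0 CPM in NIC/Cpt1a L/L lines and 0.091 and 0.30 CPM in controls. KO_4258, with no read, was the line with the most *Il1b*. The signalling chain *Il1rap* was the more abundant per length in every line, between 12.4 and 50.3 FPKM against at most 1.73 FPKM for *Il1r1*. It was at 100, 55.5, 111 and 67.3 CPM against 89.7 and 223 CPM, and its log2 fold change was -0.91 (SE 0.44, edgeR adjusted p = 0.121). *Il1rl1*, the receptor of interleukin 33, was at 46.4 CPM in KO_2768 and between 0.20 and 1.51 CPM in the other 3 lines, with 0 and 0.15 CPM in controls (log2 fold change 7.29, and 3.36 without KO_2768). *Il1r1*, *Il1rl1* and *Il18rap* are neighbours on chromosome 1 and were not high in the same lines, since *Il18rap* was highest in KO_1922. The levels of *Il1r1* and *Il1rl1* in KO_2768 stand beside its fibroblast marker sum of 1483 CPM, mostly *Dcn*. Whether cells of another type had a part was not tested.

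*Il1f6* and *Il18*, of the wider interleukin 1 family, were low in KO_4258, unlike *Il1a*. *Il1f6* (interleukin 36α) was at 18.9, 7.17, 13.0 and 0.068 CPM against 0.24 and 2.26 CPM, and *Il18* at 3.69, 5.43, 5.02 and 0.34 CPM against 0.12 and 0.56 CPM. In both, 3 lines were above the controls and KO_4258 was not (log2 fold changes 2.96, SE 1.98, and 3.38, SE 1.37). *Il1f9* (interleukin 36γ) had 130 reads against 1, 59.3-fold higher (10.5 to 2362). *Il18rap*, the accessory chain of the interleukin 18 receptor, was more even, at 66.8, 38.3, 39.0 and 26.6 CPM against 15.7 and 17.4 CPM (log2 fold change 1.37, SE 0.41, edgeR adjusted p = 0.0774). *Il7*, a growth factor of lymphocytes, had the same low line, with 3.56, 2.20, 5.55 and 0.25 CPM against 0.27 and 0.65 CPM.

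*Il24*, a member of the interleukin 10 family that acts on epithelia, showed another order of the lines. It was at 38.0, 59.9, 0.49 and 112 CPM in KO_1922, KO_1925, KO_2768 and KO_4258 against 0 and 1.40 CPM, so that KO_2768 lay between the controls (log2 fold change 6.23, SE 2.60, edgeR adjusted p = 0.106). Interleukin 24 signals through receptor chains that include IL-20RA and IL-22RA1, and these ran in opposite directions. *Il22ra1* had 194 reads in NIC/Cpt1a L/L libraries and 0 in NIC/Cpt1a+/+, at least 29.5-fold higher against a floor of 3 counts over the group. *Il20ra* had 0 reads in NIC/Cpt1a L/L and 74 in NIC/Cpt1a+/+, at least 54.0-fold lower against the same floor. *Il20ra* was thus undetected in all NIC/Cpt1a L/L lines at this depth, while *Il22ra1* was between 0.046 and 2.78 CPM in them.

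Receptors for interleukin 4 and interleukin 13 were higher in every NIC/Cpt1a L/L line. *Il4ra* was at 70.9, 70.6, 100.1 and 43.6 CPM against 15.9 and 31.7 CPM (log2 fold change 1.58, SE 0.45, edgeR adjusted p = 0.0724). *Il13ra2*, often called a decoy receptor, was at 14.2, 6.64, 11.6 and 1.69 CPM against 0.030 and 0.24 CPM (log2 fold change 5.95, SE 1.42, edgeR adjusted p = 0.0646). Both passed without KO_4258, with log2 fold changes of 1.76 and 6.29. KO_4258 was the NIC/Cpt1a L/L line nearest to the controls for both, and leaving out such a line favours a pass. Without KO_1922, KO_1925 or KO_2768 *Il4ra* did not pass (edgeR adjusted p = 0.142, 0.139 and 0.0818). The same held for *Il13ra2* (edgeR adjusted p = 0.138, 0.134 and 0.0715). *Il17rc*, a chain of the interleukin 17 receptor, varied little between lines, 42.3 ± 3.85 CPM (SD, n = 4) against 27.0 and 22.3 CPM (log2 fold change 0.78, SE 0.20, edgeR adjusted p = 0.0680). *Il17rd*, a related receptor that limits FGF signalling, was lower in all NIC/Cpt1a L/L lines, between 2.78 and 8.18 CPM against 8.93 and 16.88 CPM. *Il12a*, which encodes the p35 chain of interleukin 12, had 1 read in NIC/Cpt1a L/L and 36 in NIC/Cpt1a+/+, 78.9-fold lower (13.3 to 3200). *Il12rb1*, a chain of the interleukin 12 receptor, was at 0.53, 0.24, 2.18 and 0.23 CPM against 0.24 and 0 CPM, and the genotypes overlapped.

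Of the 4 TNF family ligands, 3 had a positive log2 fold change, beside 58.6% of listed genes tested. The ligand and receptor of the 4-1BB pair, which costimulates T cells, were both higher in every NIC/Cpt1a L/L line. *Tnfsf9* (4-1BB ligand) was at 5.76, 6.59, 5.80 and 8.07 CPM (6.55 ± 1.08 CPM, SD, n = 4) against 0.061 and 0.83 CPM, a log2 fold change of 3.86 (SE 1.10, edgeR adjusted p = 0.0735). *Tnfrsf9* (4-1BB) was at 5.51, 3.68, 1.73 and 9.60 CPM against 0 and 0.39 CPM, with a log2 fold change of 4.70 (SE 1.71, edgeR adjusted p = 0.0936). Without WT_8905 the log2 fold change of *Tnfsf9* was 6.67. This value rests on the only control left, WT_5257, with 2 and 0 reads in its libraries. Of the exon bases of *Tnfsf9*, 14.9% overlap *Gm11110* on the opposite strand.

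*Tnf* itself was at 3.11, 1.85, 12.3 and 8.96 CPM against 0.61 and 2.82 CPM, with KO_1925 between the controls (log2 fold change 1.93, SE 1.09, edgeR adjusted p = 0.145). Its receptors went in different directions. *Tnfrsf1a*, the receptor found on most cells, was at 97.1, 107, 150 and 135 CPM against 201 and 145 CPM (log2 fold change -0.50, SE 0.25). *Tnfrsf1b*, the receptor best known from immune and endothelial cells, was at 142, 97.1, 388 and 103 CPM against 71.1 and 63.6 CPM (log2 fold change 1.44, SE 0.67). *Tnfrsf1b* did not overlap between genotypes, but KO_2768 stood far above the other 3 lines. The fibroblast marker sum of KO_2768 was high mostly through *Dcn*, and its part was not tested. *Tnfsf13b* (BAFF), a survival factor of B cells, was also highest in KO_2768, at 1.64 CPM beside 0.21 to 0.39 CPM in the other 3 lines. *Tnfsf13* (APRIL) was lower in all NIC/Cpt1a L/L lines, between 6.54 and 10.2 CPM against 12.5 and 13.5 CPM, and is uncertain because 60.0% of its exon bases belong also to the readthrough gene *Tnfsfm13* on the same strand.

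TNF receptors were split, with 3 of 6 tested members positive and 3 negative, where 58.6% of listed genes tested were positive. *Tnfrsf21* (death receptor 6) was at 26.1, 21.9, 28.5 and 5.50 CPM in NIC/Cpt1a L/L lines and 68.1 and 178 CPM in controls, a log2 fold change of -2.59 (SE 0.68, edgeR adjusted p = 0.0697). It passed without KO_4258, with a log2 fold change of -2.27, but not without KO_1922, KO_1925 or KO_2768 (edgeR adjusted p = 0.138, 0.138 and 0.0743). *Tnfrsf11a* (RANK), the receptor through which RANK ligand drives growth of mammary epithelium, was at 13.0, 3.28, 17.9 and 1.76 CPM against 58.1 and 28.3 CPM (log2 fold change -2.27, SE 0.93, edgeR adjusted p = 0.105). Each NIC/Cpt1a L/L line was below both controls for these receptors. *Tnfrsf26*, a receptor gene of the mouse TNF family, was at 103 CPM in KO_4258 and between 0.49 and 1.51 CPM in the other 3 lines, above 0.37 and 0.15 CPM in controls (log2 fold change 6.67, and 1.97 without KO_4258). *Tnfrsf8* (CD30) was not tested, with 35 reads against 1, 20 of them in KO_2768.

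*Tnfaip3* encodes A20, an enzyme that limits NF-κB signalling and is itself induced by NF-κB. It was at 463, 326, 161 and 39.9 CPM against 22.9 and 59.2 CPM, so that 3 lines were above both controls and KO_4258 lay between them (log2 fold change 2.59, SE 1.06, edgeR adjusted p = 0.104). *Tnfaip8l1* showed the reverse order of lines, at 2.60, 4.02, 6.37 and 18.7 CPM against 2.56 and 2.62 CPM. *Tnfaip1* was higher by a small amount in all 4 lines, 171 ± 16.4 CPM (SD, n = 4) against 119 and 138 CPM, and *Tnfaip8* was lower, 39.5 ± 14.8 CPM against 76.4 and 61.8 CPM. These last 3 genes carry a TNF-induced name but differ in function from *Tnfaip3*.

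Among the receptors of innate immunity, *Tlr5*, the receptor of bacterial flagellin, was at 10.9, 14.6, 18.8 and 7.91 CPM against 0.34 and 3.69 CPM (log2 fold change 2.69, SE 1.03, edgeR adjusted p = 0.0984). Every NIC/Cpt1a L/L line was above both controls. Without WT_8905 the log2 fold change was 5.27, against WT_5257 alone with 6 and 5 reads in its libraries. *Tlr13*, with 18 reads against 44, was not tested. *Siglecg*, an inhibitory sialic acid receptor of B cells, was at 6.84, 10.7, 3.46 and 0.32 CPM against 0.030 and 0.21 CPM (log2 fold change 5.44, SE 1.77, edgeR adjusted p = 0.0836). It passed without KO_4258 (log2 fold change 5.83), the NIC/Cpt1a L/L line nearest to the controls, whose removal favours a pass. Without KO_1922, KO_1925 or KO_2768 *Siglecg* did not pass (edgeR adjusted p = 0.150, 0.148 and 0.0927). *Clec2d*, a ligand of an inhibitory natural killer cell receptor, was at 16.8, 7.33, 62.8 and 1.80 CPM against 4.48 and 4.37 CPM, and KO_4258 was below both controls. *Siglec1*, a macrophage receptor, had 5 reads in NIC/Cpt1a L/L against 59 in NIC/Cpt1a+/+, with a log2 fold change of -4.63 (SE 1.30, edgeR adjusted p = 0.0724).

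CD antigens included 7 members with a positive and 4 with a negative log2 fold change, where 58.6% of listed genes tested were positive. *Cd47* and *Cd274* were above both controls in every NIC/Cpt1a L/L line. *Cd47*, which inhibits phagocytosis, was at 183, 146, 301 and 143 CPM against 49.5 and 83.3 CPM (log2 fold change 1.54, SE 0.42, edgeR adjusted p = 0.0717). *Cd274*, which encodes PD-L1, was at 2.20, 1.51, 2.47 and 1.62 CPM against 0.21 and 0.68 CPM (log2 fold change 2.11, SE 0.73, edgeR adjusted p = 0.0886). The mean levels per length were 36.1 FPKM for *Cd47* and 0.53 FPKM for *Cd274* in NIC/Cpt1a L/L lines, so PD-L1 transcript was scarce also where it was higher. *Cd74*, the invariant chain of MHC class II, was below 1 CPM in all lines, between 0.30 and 0.71 CPM against 0.030 and 0.21 CPM.

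*Cd34*, *Cd93* and *Cd109* were high in different lines. *Cd34*, known from blood progenitors, endothelium and fibroblasts, was at 3.59, 0.13, 620 and 0.11 CPM against 0.030 and 0.089 CPM, so that its log2 fold change of 11.26 had an SE of 5.40. The 15076 reads of KO_2768 make up nearly all of its counts. This line had 1483 CPM of fibroblast markers, mostly *Dcn*, whose part was not tested. *Cd93* was instead highest in KO_1925, at 12.4 CPM, and lowest in KO_2768, at 0.21 CPM, with 0.030 and 0.089 CPM in controls (log2 fold change 6.25, SE 1.95, edgeR adjusted p = 0.0801). *Cd109*, a surface protein of basal epithelium that binds TGF-β, was at 8.66, 7.36, 22.1 and 0.046 CPM against 0.34 and 1.96 CPM.

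*Cd177*, *Cd163*, *Cd38* and *Cd97* were lower in each NIC/Cpt1a L/L line than in either control line. *Cd177*, a surface protein of neutrophils, was at 2.98, 0.26, 3.95 and 0.023 CPM against 17.99 and 330 CPM (log2 fold change -6.60, SE 1.86, edgeR adjusted p = 0.0724), and the controls themselves differed widely. *Cd163*, the haptoglobin-hemoglobin receptor of macrophages, was at 3.21, 0.24, 4.94 and 13.9 CPM against 72.0 and 27.2 CPM (log2 fold change -3.15, SE 1.25, edgeR adjusted p = 0.101). *Cd38*, an enzyme that consumes NAD, was at 6.49, 4.45, 14.6 and 4.61 CPM against 23.5 and 17.4 CPM. *Cd97*, an adhesion receptor, was at 43.8, 41.2, 53.5 and 95.4 CPM against 107 and 122 CPM. Of its exon bases, 23.8% are shared with *Ddx39* on the opposite strand. *Cd97* passed without KO_4258 (log2 fold change -1.30), the NIC/Cpt1a L/L line nearest to the controls, whose removal favours a pass. Without KO_1922, KO_1925 or KO_2768 it did not pass (edgeR adjusted p = 0.168, 0.160 and 0.130). *Cd2ap*, an adaptor protein named for its partner CD2, differed least in this family, with 171 ± 10.4 CPM (SD, n = 4) against 81.3 and 156 CPM.

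Members differed more than other listed genes between lines of the same genotype. After adding the CPM of 3 counts over the pooled NIC/Cpt1a L/L libraries, the median log2 range over the 4 NIC/Cpt1a L/L lines was 2.84 for tested members. For listed genes it was 1.00. This addition is small beside a single read of 1 line, so few reads can give a wide range. A single *Il12a* read gave 1.07. The median log2 gap between the 2 NIC/Cpt1a+/+ lines was 1.31 and 0.51. A range of at least 10-fold among NIC/Cpt1a L/L lines was seen in 29 members. Among tested members this was 41.8%, beside 20.1% of listed genes. In 17 members, 3 of 4 NIC/Cpt1a L/L lines were above both controls, and the odd line was KO_4258 in 10, KO_1925 in 3, KO_2768 in 3 and KO_1922 in 1. Among tested members this pattern made up 23.9%, beside 17.2% of listed genes, in which KO_4258 was the odd line in 59.8%. KO_2768 had the highest level of 31 members, 44.3% beside 34.6% of listed genes, and KO_4258 the lowest level of 34 members, 48.6% beside 39.6%. The counts of duplicate libraries differed beyond counting noise in all 5 lines with duplicates, most in KO_4258.

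The intracellular side of these pathways was read from 71 genes of cytokine receptor, NF-κB and cell death signalling. Of these, 19 were listed, 13 with a positive and 6 with a negative log2 fold change, and 0 passed by edgeR with the line as the replicate in either direction. At an unadjusted p under 0.05 there were 8 higher and 5 lower, where the listed genes had 26.3% and 21.5%, and DESeq2 called 9 and 4, where it called 31.5% and 19.2% of listed genes. The median log2 fold change was 0.62, close to the 0.60 of all listed genes. In 10 of the 19 all NIC/Cpt1a L/L lines were above both controls and in 6 below both, beside 40.7% and 34.7% of listed genes. The feedback inhibitors *Socs1* and *Socs3* were higher, *Socs3* at 11.9, 19.9, 48.4 and 40.1 CPM against 1.86 and 6.78 CPM (log2 fold change 2.80, SE 0.86, edgeR adjusted p = 0.0795). *Socs2*, a target of prolactin and growth hormone signalling, was lower, at 172, 62.6, 114 and 88.5 CPM against 493 and 376 CPM (log2 fold change -1.99, SE 0.40, edgeR adjusted p = 0.0552). *Stat5a*, the transcription factor through which prolactin acts in mammary epithelium, was at 23.9, 21.6, 44.9 and 35.3 CPM against 97.8 and 80.2 CPM (log2 fold change -1.50, SE 0.33, edgeR adjusted p = 0.0617), and *Stat5b* was lower too. The NF-κB subunit genes *Nfkb2* and *Rela* did not overlap and were higher, by log2 fold changes of 1.04 (SE 0.36) and 0.45 (SE 0.16), while the adaptor genes *Traf4* and *Traf6* were lower, by -0.67 (SE 0.23) and -0.64 (SE 0.19).

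Members were spread over 17 chromosomes, and the listed genes around them leaned in 1 direction on some of these. Of listed genes tested, 86.1% had a positive log2 fold change on chromosome 17, 85.3% on chromosome 4 and 79.1% on chromosome 1. Members with a positive value numbered 4 of 5, 3 of 3 and 7 of 9 there. On chromosome 2, where 45.4% of listed genes were positive, the members were positive in 6 of 7, among them the neighbours *Il1a* and *Il1b* and the neighbours *Il1f9*, *Il1f6* and *Il1rn*.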

How the data were processed

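Samples were grouped by the genotype field of their labels. Sample titles name the reverse allele status, and the genotype field was taken as correct. The authors removed low-quality reads, aligned them to mm10 with STAR and counted reads per gene with HTSeq, and the deposited counts are whole numbers without normalization. Per the file headers the authors also deposited a normalized signal (counts over 1 size factor per library) and FPKM. The log2 fold changes and p-values of the authors' own comparison were not used. Whether counting used strand is not given in the sources used here.

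Duplicate counts were summed by line and scaled with the size factors recovered from the normalized columns, giving CPM. Genes passing filterByExpr entered edgeR's quasi-likelihood test with Benjamini-Hochberg adjustment over the 4273 listed genes tested. R 4.3.3, edgeR 4.0.16, DESeq2 1.42.0 and matplotlib 3.10.9 were used, and scripts were tested on simulated data. Folds against 0 reads used a floor of 3 counts over the group, and genes with 1 to 3 reads in a group have an exact 95% interval of the ratio. Duplicate numbers did not pair libraries across lines.

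The members, families, ligand and receptor pairs and lists were chosen with earlier results of these data known. The rule for naming took members passing by line, the 3 largest values in each direction per family and pair partners, 49 members, and the other 21 were described after their values were seen. Labels call duplicates biological replicates of a line, so p-values by library measure spread within lines as well.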

Additional observations from a re-analysis of the deposited data

Results flagged for a closer look

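In 12 of the 49 named members, 1 of the 4 NIC/Cpt1a L/L lines stood apart from the other 3, its gap to the nearest line taking more of the group's range than Dixon's 95% critical value for 4 samples. Chance alone flags about 1 group in 20 only where values follow a normal distribution. CPM were used here without a log, so the rate by chance is not known. In the table as a whole 1 line stood apart in 22.4% of tested members and 11.7% of listed genes. Named members were taken for large fold changes, which favours genes with 1 extreme line. KO_2768 was the line apart for *Cd34* (share of the range 0.994), *Il1rl1* (0.972), *Cxcr4* (0.949), *Ackr3* (0.905), *Tnfsf13b* (0.877) and *Tnfrsf1b* (0.846), and was the highest line in each. KO_4258 was apart and highest for *Tnfrsf26* (0.990), *Cxcl3* (0.989), *Csf1r* (0.944), *Ccl17* (0.939) and *Il12a* (1, from a single read). KO_1922 was apart and highest for *Cxcl12* (0.910).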

How the results depend on the processing

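No named member changed direction in a setting in which it was tested. Low counts left *Ccl17*, *Cd34*, *Il12a*, *Il1b*, *Il20ra*, *Siglec1* and *Tnfsf13b* untested by library, *Il22ra1* without KO_1922 or KO_1925, *Cd34* without KO_1922 or KO_2768, *Il12a* and *Il20ra* without WT_8905, and *Ccl17*, *Il12a* and *Il1b* with 1 library per line. The counts of members whose lines did not overlap stayed within 1.5 times. Counts of passing genes moved. With every library a separate sample, 2187 listed genes passed higher and 1677 lower, and 37 and 15 members. The replicate block on those libraries gave 2120 and 1660 listed genes and 36 and 14 members, and since the A minus B differences of lines correlated between -0.042 and 0.035, the duplicate numbers do not pair the libraries. TMM factors gave 99 and 291 listed genes and DESeq2 size factors 100 and 294, with 1 member higher (*Il34*) and 1 lower (*Il12a*) under either. These scalings shifted the median log2 fold change of listed genes by -0.18 and -0.23. The DESeq2 Wald test by line gave 1323 and 805 listed genes and 28 and 9 members, and 1 library per line gave 1 member higher (*Il34*). Adjusting over the 55450 genes of the reference gene table left 0 and 0 listed genes by edgeR, where 1122 and 920 had an unadjusted p under 0.05. Leaving out 1 line gave 0 to 307 listed genes higher, 0 to 237 lower, 0 to 6 members higher and 0 to 2 lower. The highest counts came without KO_4258, and without KO_1922, KO_1925 or WT_5257 there were 0 listed genes in either direction by edgeR (462 to 758 higher and 431 to 620 lower at an unadjusted p under 0.05). Without KO_4258 the members were *Il34*, *Csf1*, *Csf2*, *Il4ra*, *Il13ra2* and *Siglecg* (higher) and *Tnfrsf21* and *Cd97* (lower). For *Csf1*, *Csf2*, *Il4ra*, *Il13ra2*, *Siglecg* and *Cd97*, KO_4258 was the NIC/Cpt1a L/L line nearest to the controls. Without KO_2768 the members were *Il1a* and *Cxcr4*, for which KO_2768 was that nearest line. Leaving out such a line favours a pass. Calls without WT_8905 are not named, since WT_5257 was the only control left. With 1 control line left, that line was assumed to vary like the other genotype. Why these lines matter was not tested. With 2 control lines, the spread among controls is known poorly, and members below about 1 CPM rest on few reads.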
